A study of Bos taurus with 15 samples.

Results

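The data described here are 651 cytosine positions of the bovine genome that were read deeply in the mammary gland of 6 heifers. In every heifer few of their reads called the cytosine methylated. A position was taken when it had more than 10 reads and a methylation level of 15% or less in each of the 6 heifers, on any sequence of the assembly. The level of a position is the percent of its reads that called the cytosine methylated. Of 18486 positions with more than 10 reads in all 6 heifers, called deep positions here, 3.52% met the limit. With more than 20 reads 406 positions did, and 188 did when positions among the deepest 0.1% of a library were left out. The 651 are called members in what follows, and the remaining 17835 deep positions are the set they are compared with. Since the members were selected on their depth and their level in the heifers, the mammary levels are given as a description. The one fit that takes them in is a regression of every deep position on treatment, whose calls at members are given as counts.

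All animals were Holstein, and 1 library of reduced representation bisulfite sequencing (RRBS) was made per animal. The dams were kept in shade during the last 6 to 7 weeks of gestation and were either cooled with fans and water soakers (CL) or left without active cooling (HT). Mammary gland was biopsied at day 21 of the first lactation from heifers that had been in utero cooled (IUCL-H, n = 3) or in utero heat stressed (IUHT-H, n = 3). Liver was taken at birth from bull calves that had been in utero cooled (IUCL-B, n = 5) or in utero heat stressed (IUHT-B, n = 4). Tissue, sex and age therefore change together between heifers and calves and cannot be told apart, and both tissues are mixtures of cell types. The tissue labels were not checked against marker genes, since no gene annotation of the files' assembly was used.

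DNA methyltransferases add methyl groups to cytosines that are followed by guanine (CpG), and in mammalian somatic tissue most CpG cytosines carry the mark. Unmethylated CpGs are best known from CpG islands, short stretches rich in CpG that often lie at gene promoters and stay unmethylated in most tissues. In RRBS, restriction enzymes that cut at CpG-containing sites enrich for CpG-rich fragments. Bisulfite turns unmethylated cytosines into bases read as thymine, while methylated ones are still read as cytosine. The counts cannot tell an unmethylated cytosine from a thymine in an animal's own DNA or from a misplaced read, and neither was tested.

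The heifer libraries listed 7552567 to 9753540 positions with 13949097 to 20240625 calls, so a position usually held a small number of reads, and the overall level was 72.2% to 76.2%. The deep positions are a small minority of the 23458474 positions listed in any heifer. The calf libraries were of another shape, with 307023 to 5958861 positions and 10484911 to 38221835 calls. IUCL-B calves 4 and 5 listed 3289592 and 5958861 positions, while the other 7 calves listed 1052206 or fewer.

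Most deep positions were above the limit in every animal. No heifer was at 15% or less at 16910 deep positions (91.5%), and every heifer was at 651. At the limit or under it in 1, 2, 3, 4 and 5 heifers were 410, 194, 98, 104 and 119 positions. Taken singly, the heifers had 941 to 1064 deep positions at 15% or less, or 5.09% to 5.76%. The median level of the deep positions outside the set was 75.3% to 77.6% in the 6 heifers.

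**Figure D1:**
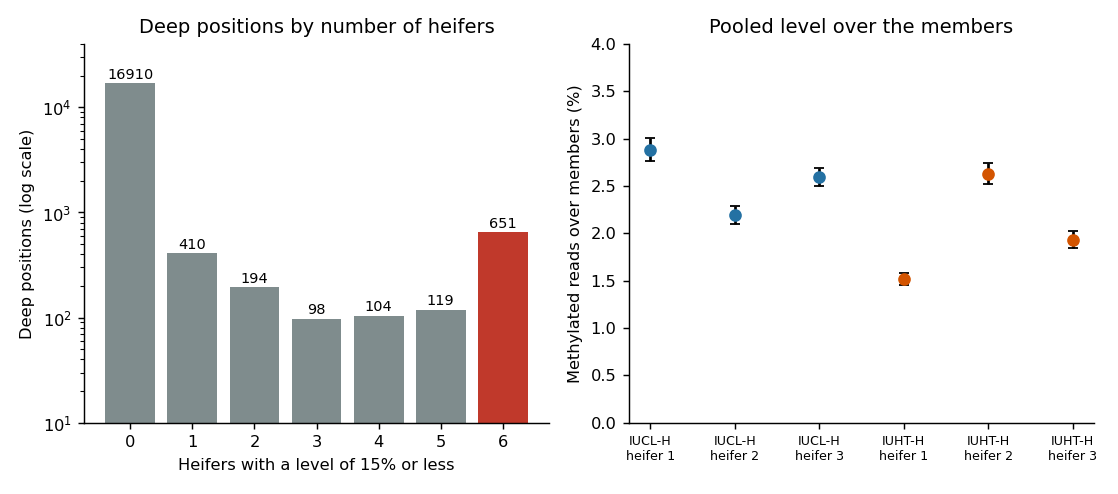
Left, deep positions (log scale) by the number of heifers with a level of 15% or less, with the 651 members in red. Right, percent of methylated reads pooled over the members in each heifer, with Wilson 95% intervals that cover counting error only (blue IUCL-H, orange IUHT-H). The 6 heifers lay between 1.52% and 2.88%, and the groups overlap.

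At the members, methylated reads were rare in every animal. The pooled level over all member reads was 2.88%, 2.19% and 2.59% in IUCL-H heifers 1, 2 and 3, over 68102, 95683 and 106249 reads. It was 1.52%, 2.63% and 1.93% in IUHT-H heifers 1, 2 and 3, over 155577, 85736 and 90963 reads. The lowest value was in IUHT-H heifer 1 and the highest in IUCL-H heifer 1, and the remaining 4 heifers lay between them with both groups mixed. The median member had a level of 0.568% to 1.16% in the 6 heifers, and 249 to 287 members per heifer had no methylated read at all. The standard deviation between the 6 heifers was 1.60 percentage points at the median member.

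Most members lay well below the limit. The highest of a member's 6 levels had a median of 4.62%, it was under 5% at 340 members (52.2%), and it was over 10% at 116. At 62 members no heifer had a methylated read. The total reads at these 62 ranged from 85, which allows a level of up to 3.53%, to 836 at chr5:114162947, which allows up to 0.359% (3 reads of the total, counting error only). The members on chromosomes nearest the limit were chr4:11505950, chr10:23183142 and chr27:28891079, each with 15.0% in its highest heifer. A member on an unplaced sequence also had 15.0% in its highest heifer. On chromosomes, the nearest deep positions outside the limit were chr8:74737734 at 15.03%, chr23:4171322 at 15.07% and chr1:145404404 at 15.15%, in the highest heifer of each. Their levels in the other heifers overlapped those of the nearest members, so no gap separates the set at its limit.

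When the rule was applied to 5 heifers in turn, it gave 674 to 741 positions, of which 665 to 679 had more than 10 reads in the heifer that was left out. Of these, 95.9% to 97.9% were at 15% or less in that heifer. The positions that passed were the 651 members each time. These shares therefore restate the counts by number of heifers and are no separate support. The highest level found in a left-out heifer was 72.0%, in IUHT-H heifer 3, and in the others it was 26.3% to 53.8%.

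Read depth at the members was spread over a wide range. A member had 53 reads at the median over members and heifers, and other deep positions had 44. The lowest value was 11 reads and the highest 8060. A median over heifers of 100 or more was found at 186 members (28.6%) and at 20.9% of the other deep positions, and 11 members had a median of 1000 or more. The ratio of the median reads of members to that of other deep positions was 0.958, 1.32 and 1.13 in IUCL-H heifers 1, 2 and 3, and 1.54, 1.02 and 1.30 in IUHT-H heifers 1, 2 and 3. The mean log2 ratio was 0.26 ± 0.26 (SD, n = 6), and 0.53 when mean reads were used in place of medians. It is a description, since the rule used the reads of these heifers. It rests in part on the 142 members of uneven depth described further on. Without them the median reads were 43, 38 and 52 in IUCL-H heifers 1 to 3 and 41, 46 and 38 in IUHT-H heifers 1 to 3, against 48, 38 and 53 and 39, 52 and 37 at other deep positions.

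The 5 deepest members on chromosomes had these values. At chr17:70997843, IUCL-H heifers 1 to 3 had 3335, 1863 and 8060 reads with levels of 4.02%, 3.65% and 3.06%, and IUHT-H heifers 1 to 3 had 2236, 3701 and 791 reads with 3.18%, 4.11% and 3.41%. At chr3:64409316, with 1505 to 4742 reads, the 6 levels were 5.12% to 6.08%. At chr29:30237488, with 1213 to 2014 reads, they were 1.51% to 2.66%. At these 3 positions methylated reads were found in all 6 animals, and the highest level was less than 2 times the lowest.

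The other two had lower levels and an uneven depth. At chr17:5324205, IUCL-H heifers 1 to 3 had 938, 2293 and 1945 reads and IUHT-H heifers 1 to 3 had 5655, 1346 and 2488, with levels of 0.442% to 1.17%. At chr18:18053226 the reads were 969, 2545 and 1627 in IUCL-H and 5030, 1196 and 2546 in IUHT-H, with levels of 0.457% to 1.04%. The order of the heifers by reads was the same at these 2 positions, on different chromosomes, with IUHT-H heifer 1 highest and IUCL-H heifer 1 lowest.

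The excess of reads in IUHT-H heifer 1 over IUCL-H heifer 1 recurred at a large part of the members. How many members had the full order of the heifers was not counted. In all, 142 members (21.8%) had at least 4 times as many reads in IUHT-H heifer 1 as in IUCL-H heifer 1, against 59 of the other deep positions (0.331%), so that 70.6% of the deep positions with this read ratio were members. The ratio was chosen as a criterion after the values were seen and carries no test. Its median was 5.25 in the 142, 0.966 in the other 509 members and 0.842 in the other deep positions. Another 49 members had a log2 ratio of 1.5 to 2, just under the limit of 4 times. At the 142, the median reads were 54, 141 and 116 in IUCL-H heifers 1, 2 and 3, and 318, 82.5 and 154 in IUHT-H heifers 1, 2 and 3. The median reads of the other 509, which are given above, did not follow the order of these medians.

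**Figure D2:**
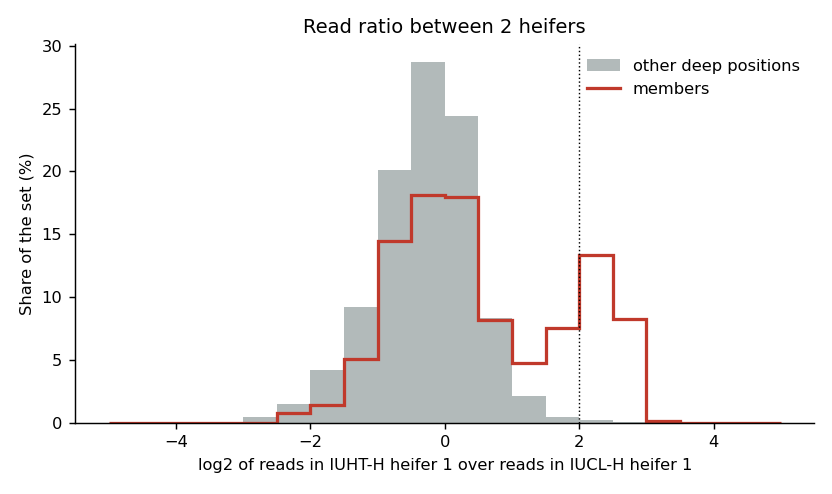
Share of the members (red line) and of the other deep positions (grey) by the log2 ratio of reads in IUHT-H heifer 1 to reads in IUCL-H heifer 1, in bins of 0.5. The members have a second hump at ratios of 4 times or more, right of the dotted line, which holds 21.8% of members and 0.331% of other deep positions.

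Other measures of the 142 are also given as a description. Their pooled level was 0.832% to 1.37% in the 6 heifers, and that of the 509 was 2.54% to 3.40%. None of the 142 lay on an unplaced sequence. They had a median of 3.5 other listed positions within 100 bp, where the 509 had 8. In liver, 98 of the 142 (69.0%) were listed in no calf, against 32.6% of the 509.

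Along the chromosomes the members were not evenly scattered. Of 423 bins of 100 kb with a member, 324 held only 1, but 1 bin on chromosome 1 held 10 of the 32 members there. That bin also held 403 of the 1016 deep positions of chromosome 1. Each chromosome held at least 7 members (chromosome 23) and at most 33 (chromosome 3), and the X chromosome held 28. Members made up 1.89% of the deep positions on chromosome 27 (30 of 1584) and 19.3% on chromosome 12 (11 of 57). The 3 chromosomes with the most deep positions, chromosomes 27, 8 and 29, had the 3 lowest shares of members (1.89%, 1.93% and 1.96%).

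Unplaced sequences, which the assembly assigns to no chromosome, held 49 members. This is 7.53% of the set (Wilson 95% interval 5.74% to 9.81%, counting error only), against 23.1% (4123) of the other deep positions and 0.921% of all listed positions. Members made up 1.17% of the deep positions on unplaced sequences and 4.21% of those on chromosomes. The 49 were spread over 44 sequences of the 758 unplaced ones with a deep position, and 5 of them held 2 members each. On one of these 5, the member at position 880 had 118 to 196 reads and levels of 0% to 2.04%, and the member at 1147 had 39 to 61 reads and levels of 0% to 3.70%. Neither had more than 10 reads in a calf.

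With members on one sequence joined when the gap between them was under 1 kb, the 651 formed 557 clusters. Most members, 487 (74.8%), stood alone. Of the 17835 other deep positions 4.69% did by the same gap, but that set is far larger, so the 2 shares are not on a like footing. There were 54 clusters of 2 members, 10 of 3, 4 of 4 and 2 of 5, so that 70 clusters held 164 members (25.2%). Inside clusters the median gap was 13 bp, 72 of the 94 gaps were 50 bp or less, and 20 were 2 bp. A read is 50 bp long, so such neighbours can lie on the same fragments. At 35 neighbouring pairs within 50 bp the reads differed by 10% or less in every heifer. Those positions are not independent readings.

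A deep position that was not a member lay within 50 bp of 301 members (46.2%), and its mean level over the heifers had a median of 69.5% (quartiles 49.2% and 80.3%). These neighbours had failed the limit of 15%, which sets them apart from members by choice but not by how much.

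The clusters with most members fell into very different surroundings. The following 8 are those with most members on chromosomes, with ties ordered by reads. For each, the surroundings are the listed positions that are not members from 500 bp before the cluster to 500 bp after it.

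In 2 of these clusters the surroundings were at or near the limit of 15% or under it in every heifer. The cluster at chrX:114460784-114462141 had 5 members over 1358 bp, the longest of all, with 14 to 117 reads and levels of 0% to 8.89%. Its surroundings had a level of 3.98% to 15.3% in the 6 heifers, over 107 to 201 calls. In liver, 30 of the 32 values with more than 10 reads in a calf at these members were at 15% or less and 1 was at 85% or more. The 4 members at chr19:22814786-22815342 had levels of 0% to 13.6%, and the surroundings were at 2.11% to 6.25%. Of 10 liver values at these 4, 8 were at 15% or less.

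In 3 clusters the members lay within methylated surroundings. The 4 members at chr7:462311-462385 had levels of 0% to 7.69%, and the surroundings were at 76.3% to 83.9% over 4189 to 8460 calls. A further 6 deep positions inside these 75 bp had a median level of 92.0%. The deepest of the 4, chr7:462311, had 816, 1538 and 764 reads in IUCL-H with levels of 1.47%, 0.845% and 1.44%, and 951, 1034 and 570 reads in IUHT-H with 1.37%, 2.03% and 1.75%. In liver all 16 values with more than 10 reads at this cluster were at 15% or less, while the surroundings in the 9 calves were at 60.3% to 80.0%. The cluster was thus low in both tissues with methylated cytosines next to it.

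At chr4:41741054-41741155, 5 members had levels of 0% to 14.3%. The surroundings were at 61.8% to 76.0%, and 5 other deep positions inside the 102 bp had a median level of 66.3%. In the 7 calves with more than 10 calls at the surroundings, these were at 23.7% to 85.3%. At the 1 member with enough reads in liver, chr4:41741055, all 5 calves with more than 10 reads were at 15% or less. At chr20:67789592-67789607, 3 members within 16 bp had 222 to 1884 reads and levels of 0.425% to 4.5%, while the surroundings were at 93.0% to 97.8%. No calf had more than 10 reads at these 3, and the surroundings in the 5 calves with more than 10 calls there were at 91.6% to 100%.

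The last 3 clusters had surroundings between these. At chr6:19790829-19790833, 3 members within 5 bp had 130 to 177 reads, and at any of the 3 a heifer's reads differed by at most 1 from those at the others. The levels at the first 2 of these were 6.29% to 9.15% in IUCL-H and 1.39% to 7.69% in IUHT-H, and at the third 0% to 1.70% in the 6 heifers. The surroundings were at 9.80% to 19.7% over 96 to 123 calls. At chr13:75809559-75809574, 4 members within 16 bp had levels of 0% to 5.32%, and the surroundings were at 12.1% to 33.3% over 12 to 58 calls. No calf had more than 10 reads at the members of either cluster. The 4 members at chr2:2026283-2026740 had levels of 0% to 11.8% with 12 to 155 reads, and the surroundings were at 12% to 54.5% over only 22 to 39 calls. In liver, 25 of 28 values at these 4 were at 15% or less and none was at 85% or more.

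The same spread of surroundings was seen over the whole set. Within 2 to 200 bp, 465 members had at least 20 calls at positions that were not deep in every heifer. The median level of these surroundings was 63.7%, against 72.3% at 16420 other deep positions. The surroundings were at 15% or less at 54 members (11.6%), against 0.256% of the other deep positions, and at 50% or more at 319 members (68.6%), against 87.7%. Low surroundings were found at 28.2% of 142 members in clusters and at 4.33% of 323 members alone. Alone and with surroundings of 50% or more were 246 members, and 186 of the 651 had too few calls around them to be judged. Neighbouring positions can share reads with a member, so they are not separate samples of DNA.

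CpG spacing was counted from the listed positions. Members had a median of 7 other listed positions within 100 bp (quartiles 3 and 13), and other deep positions had 11 (quartiles 7 and 16). No other position was listed within 100 bp at 44 members (6.76%), against 0.768% of the other deep positions. Within 500 bp the medians were 25 and 34. On chromosomes alone the medians within 100 bp were again 7 and 11. Members in clusters had 10.5 and members alone 7. The counts are of positions listed in any heifer, with both strands of a CpG listed apart, and they depend on which fragments were read as well as on the genome. By this count members were not in denser CpG than other deep positions.

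**Figure D3:**
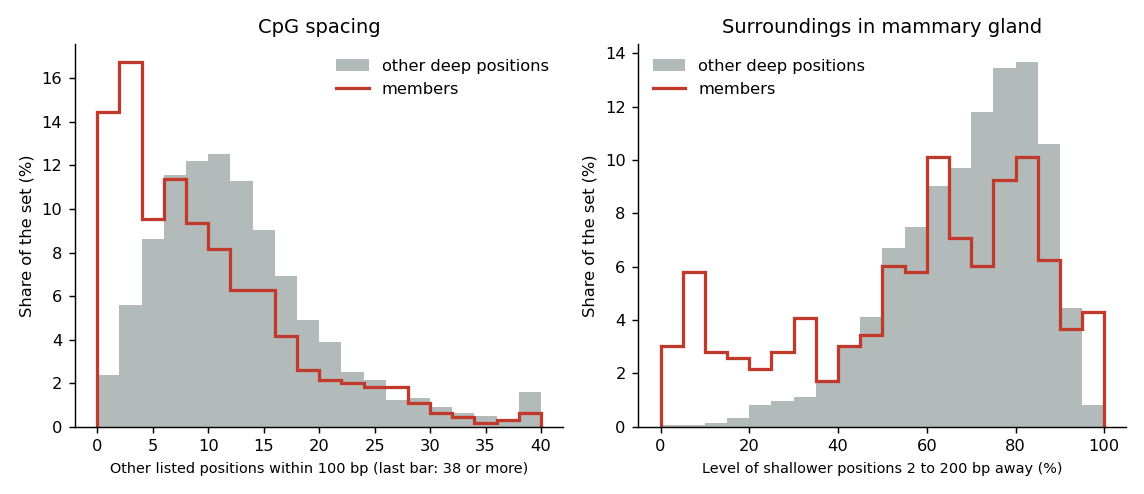
Share of members (red line) and of other deep positions (grey) by the number of other positions listed within 100 bp (left) and by the pooled level of shallower positions 2 to 200 bp away, where at least 20 calls were at hand (right). Members are shifted to few listed positions, with medians of 7 and 11, and 11.6% of them have surroundings at 15% or less, against 0.256%.

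Positions around the members that were not deep in every heifer, and so were outside the set the rule chose from, had lower levels than those around other deep positions. From 2 to 1000 bp the level near members was 67.0%, 65.6% and 65.9% in IUCL-H heifers 1 to 3, and 63.9%, 64% and 63.9% in IUHT-H heifers 1 to 3. Near other deep positions, weighted to the same distances, it was 68.9% to 74.2%. The level near members was lower in 6 of 6 heifers, by 5.78 ± 1.46 percentage points (SD, n = 6; two-sided exact permutation test over sign flips, p = 0.03125, the smallest possible). Adjusted over all 6 tests run, p was 0.0794, which misses 0.05. These positions were scored in the same 6 heifers that chose the members, and those within 50 bp can lie on the members' own reads. The low levels that the rule demanded can carry over to them, so p gives little separate support.

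By distance, the levels were furthest apart next to the member. At the directly adjacent position the level was 28.0% to 37.0% near members and 67.0% to 73.6% near other deep positions. At 2 to 10 bp it was 51.5% to 60.9% against 73.5% to 76.8%. At 11 to 50 bp it was 63.3% to 65.8% against 67.1% to 72.9%. At 51 to 200 bp it was 59.1% to 65.8% against 65.7% to 72.6%. At 201 to 1000 bp it was 64.3% to 67.8% against 69.9% to 74.8%. Beyond 50 bp, too, the level near members was lower in every heifer. These values leave out adjacent positions that were deep in every heifer themselves. An adjacent listed position is usually the cytosine of the same CpG on the opposite strand, although in a run of CGCG it can belong to the next CpG.

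With deep adjacent positions included, 376 members had exactly 1 adjacent position listed in any heifer. In a given heifer 165 to 187 of these positions were read, with a median of 2 to 3 reads. By position, 40.3% to 50.8% of them were at 15% or less in a heifer, against 11.6% to 12.4% next to other deep positions. The pooled level, in which positions with many reads weigh most, was 8.40% to 14.1%, and 33 to 38 of the positions had more than 10 reads. Part of this is the rule's own work, since some adjacent positions are members themselves. Next to members alone in their cluster, 35.5% to 46.6% of the adjacent positions were at 15% or less, and next to members in clusters 50% to 64.2%. The pooled level was 27.0% to 37.3% next to members alone and 3.06% to 6.63% next to members in clusters. Next to members of uneven depth the adjacent position was read at only 18 to 27 positions per heifer, with a median of 1 read and none over 10 reads, and 10% to 29.6% were at 15% or less. The pooled level there was 65.4% to 75%. Next to the other members 44.0% to 54.5% were at 15% or less, and the pooled level was 8.06% to 13.5%. So few reads allow no more than these shares and levels.

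**Figure D4:**
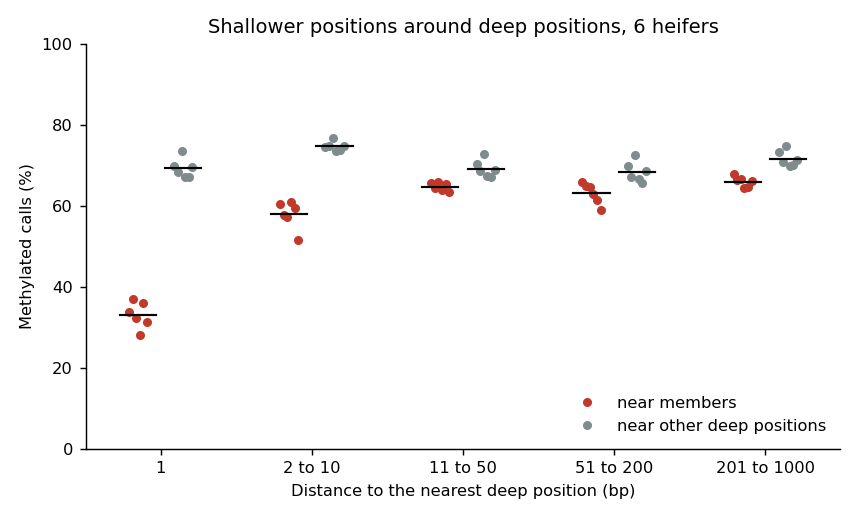
Percent of methylated calls at positions that were not deep in every heifer, by distance to the nearest member (red) or other deep position (grey). Each point is 1 of 6 heifers and the bars are means, and the points near members rise from 28.0% to 37.0% at 1 bp to 64.3% to 67.8% at 201 to 1000 bp. Near other deep positions the points at 201 to 1000 bp lie at 69.9% to 74.8%.

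Liver was not used in choosing the members, and there most members that could be read were unmethylated as well. In IUCL-B calves 1 to 5, 86, 74, 90, 142 and 147 members had more than 10 reads, and 79.1%, 83.8%, 87.8%, 73.2% and 73.5% of them were at 15% or less. In IUHT-B calves 2 to 5, 85, 58, 71 and 34 members had more than 10 reads, and 87.1%, 86.2%, 98.6% and 94.1% were at 15% or less. Of the other deep positions read to this depth in the same calf, 6.04% to 18.8% were at 15% or less. That set had failed the limit in the mammary gland. Over all positions with more than 10 reads in a calf, 18.7% to 21.0% were at 15% or less. All 9 calves showed the difference, which was 69.6 ± 5.78 percentage points (SD, n = 9; two-sided exact permutation test over sign flips, p = 0.00391, the smallest possible, adjusted p = 0.0234 over 6 tests). Without the 142 members and the 59 other positions with the uneven read ratio the share over members was 86.7 ± 8.03% (SD, n = 9), and the difference was 71.5 points.

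**Figure D5:**
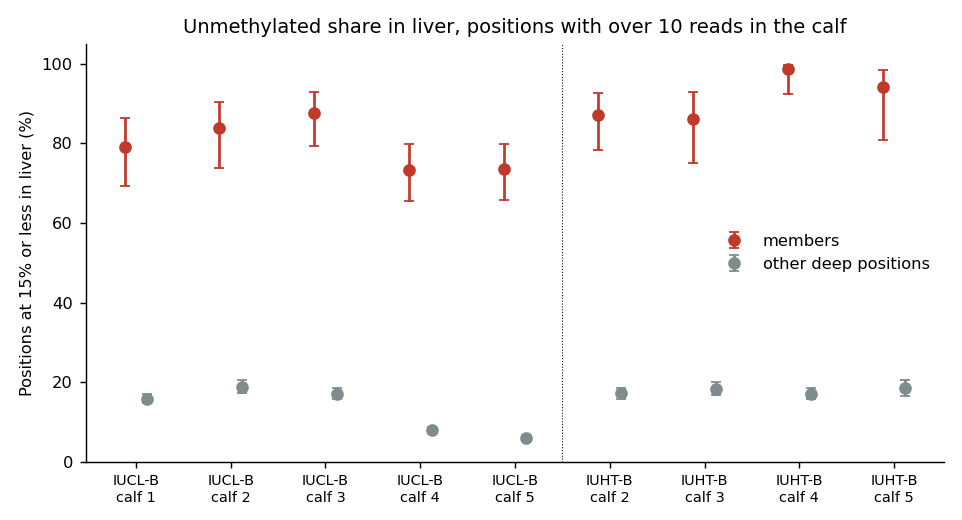
Percent of positions at 15% or less in liver, over the members (red) and the other deep positions (grey) with more than 10 reads in that calf, with Wilson 95% intervals for counting error. In all 9 calves the members lie at 73.2% or higher and the other deep positions at 18.8% or lower.

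The members that could be read in liver were a minority. Per calf, 123 to 298 of the 651 were listed at any depth, or 28.3 ± 8.76% (SD, n = 9), against 44.2 ± 13% of the other deep positions. Over all calves, 264 members (40.6%) were listed in none, against 16.6% of the other deep positions, and 407 (62.5%) had more than 10 reads in none. The liver result therefore describes 244 members. Of these, 142 (58.2%) were at 15% or less in every calf with more than 10 reads there, and 34 were at 85% or more in every such calf.

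Where more calves could be compared, agreement between calves was common but not general. With more than 10 reads in 3 or more calves, 58 of 108 members (53.7%) were at 15% or less in all of them, against 48 of 4837 other deep positions (0.992%). None of the 108 was at 85% or more in all of them, but 18 were at 15% or less in one calf and at 85% or more in another. Only 11 members had more than 10 reads in all 9 calves, and 5 of these were at 15% or less in all 9, against 0 of 470 other deep positions.

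Those 5 were low at every reading. At chr27:28835003 no methylated read was seen in any of the 15 animals, with 11 to 26 reads in the heifers and 14 to 94 in the calves. At chr27:28896850 the heifers were at 0% to 0.897% with 283 to 451 reads, and the calves at 0% to 0.901%. At chrX:114171701 the calves were at 0% to 6.33%, with 185 to 1746 reads, and the heifers at 0% to 9.33%. At chrX:114462141, in the cluster of 5 members, the calves were at 0% to 0.495% with 52 to 1433 reads. The fifth, on an unplaced sequence at position 3508, had 0% to 0.595% in the calves, with 21 to 2730 reads.

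The other 6 of the 11 had at least 1 calf above the limit. At chr5:53762744 the heifers were at 0.641% to 4.03% with 149 to 281 reads, and liver covered almost the whole scale. There IUCL-B calves 1 to 5 were at 14.4%, 0.247%, 0%, 89.9% and 70.5%, and IUHT-B calves 2 to 5 at 46.4%, 8.33%, 0.562% and 29.9%. The deepest member, chr17:70997843, was at 1.75%, 3.14%, 36.6%, 43.3% and 27.7% in IUCL-B and at 3.64%, 0.254%, 1.30% and 0.264% in IUHT-B. At chr14:564477, IUCL-B calves 4 and 5 were at 75.9% and 43.6%, and the other 7 calves at 0% to 12.9%. IUCL-B calves 4 and 5, the libraries with the most listed positions, were at 23.8% or more at these 3 members and at chr7:51284928. The remaining 2 of the 6 had 1 calf above the limit each, IUCL-B calf 5 at 27.6% at chr14:4921636 and IUCL-B calf 3 at 20.1% at chrX:114461371, with the other calves at 0% to 10%. The part of the libraries of IUCL-B calves 4 and 5 in these values was not tested.

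Among members read more than 10 times in 3 or more calves, the 5 with the highest mean liver level differed widely between calves. At chr8:15061229, the heifers were at 0% to 5.15% with 36 to 114 reads. In liver the level was 100% in IUCL-B calf 1 (14 reads) and IUHT-B calf 3 (134 reads), but 0% in IUCL-B calf 2 (20 reads). At chr5:114151064, with 32 to 220 reads, IUCL-B calves 1 and 4 were at 91.6% and 100%. There IUCL-B calf 3 was at 1.45% and IUHT-B calf 3 at 0%. At chr14:139553, IUCL-B calves 1, 2 and 3 were at 94.7%, 41.7% and 0%. At chr8:74728958, IUHT-B calf 3 was at 95.8%, IUCL-B calf 1 at 6.06% and IUHT-B calf 2 at 5.13%. At chr28:43068606, IUCL-B calves 1, 4 and 5 were at 100%, 32.7% and 25%.

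Members with the uneven read ratio had other values in liver. Over all calves they had 23 values with more than 10 reads, 3 of them at 15% or less and 19 at 85% or more. The other members had 764 such values, 644 (84.3%) at 15% or less and 44 at 85% or more. At chr18:18053226, for example, IUHT-B calf 3 was at 100% over 99 reads. Values of 1 calf at different members share a library, so these counts are a description.

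The liver state is given here by the surroundings in the mammary gland, as a description over calf values that share libraries. Of the calf values with more than 10 reads, 90.7% of 140 were at 15% or less at members with low surroundings (15% or less), 84.9% of 159 at members with surroundings between 15% and 50%, and 81.4% of 382 at members with surroundings of 50% or more. At members with under 20 calls around them it was 69.8% of 106. The members of uneven depth made up 12 of 54, 9 of 92, 52 of 319 and 69 of 186 members in these classes. Without them the shares were 90.7%, 86.0%, 83.7% and 74.5%. Members read in many calves count up to 9 times in these shares, and of the 319 members with surroundings of 50% or more 137 had a value in any calf.

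The study's own question was whether heat stress of the dam in late gestation is followed by other methylation in the offspring. In the mammary gland the pooled member level was 2.56 ± 0.346% in IUCL-H and 2.03 ± 0.564% in IUHT-H (SD, n = 3 each), and the groups overlapped. IUHT-H minus IUCL-H was -0.529 points, and it was -0.274 without IUHT-H heifer 1 and -0.831 without IUHT-H heifer 2. With members taken at a limit of 25% it was -0.954. As a mean of member levels, not of pooled reads, it was -0.237. Pooled reads weigh members by their depth. Without the 142 members of uneven depth the pooled level was 3.40%, 2.98% and 3.21% in IUCL-H heifers 1 to 3. In IUHT-H heifers 1 to 3 it was then 2.54%, 3.28% and 2.82%. No p is given, since the limit of 15% chose these levels and holds both groups close together.

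Site by site, the methylated and unmethylated reads were fitted by logistic regression on maternal treatment over all 18486 deep positions, with Benjamini-Hochberg adjustment over all of them. At q of 0.2 or less, 22 members (3.38%) were called, against 5.60% of all deep positions. Of the 22, 4 were higher in IUHT-H (background 1.43%) and 18 were lower (background 4.17%). These counts describe positions whose levels the rule had capped, and nothing is read from their distance to the background. For the same reason a difference of 15 percentage points, the study's further demand, could hardly occur at a member. None had it, and 1.54% of all deep positions (285) met it together with q. That background count was 453 without IUCL-H heifer 1, 122 with more than 20 reads, 29 without the deepest positions and 0 with a test that allows for extra variation between heifers. Differences of pooled levels at members ran from -9.05 to 6.76 points, with a median of -0.123, where the median over all deep positions was -0.729. Of the 22, 12 had the uneven read ratio. The regression takes reads as independent, and the test with extra variation called 0 members. At an unadjusted p under 0.05 by this test were 13 of the 651 members and 299 of all 18486 deep positions. Nothing is read from these counts.

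As a description with no test, the members with the largest differences of mean levels on the chromosomes are given next. At chr3:91882537, IUCL-H heifers 1 to 3 had 12.5%, 12% and 3.85% over 48, 25 and 26 reads, and IUHT-H heifers 1 to 3 had 5.26%, 0% and 0% over 19, 48 and 28 reads. The groups overlapped there. At chrX:85024891, IUCL-H had 11.5%, 9.30% and 8.06% and IUHT-H 4.79%, 0% and 1.67%, and at chr12:67311186 IUCL-H had 9.23%, 12.7% and 5.88% and IUHT-H 0%, 2.38% and 3.70%. In both, every IUCL-H heifer was above every IUHT-H heifer.

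In the other direction, IUHT-H had 3.03%, 9.09% and 14.8% at chrX:136674645, over 33, 11 and 27 reads, and IUCL-H had 0%, 0% and 5.00%. At chr10:5929393, IUCL-H had no methylated read and IUHT-H had 1.59%, 12.5% and 8% over 63, 16 and 25 reads. At chr27:26379949, IUCL-H had none and IUHT-H had 7.14%, 8.70% and 0% over 14, 23 and 15 reads. The values above 0% at these 3 rest on 1 to 4 methylated reads each.

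In liver, the share of members at 15% or less was 79.5 ± 6.38% in IUCL-B (SD, n = 5) and 91.5 ± 5.91% in IUHT-B (SD, n = 4). The groups overlapped, as IUCL-B calf 3 at 87.8% was above IUHT-B calves 2 and 3 at 87.1% and 86.2%. The difference of 12 percentage points had p = 0.0397 in a two-sided exact permutation test over all splits of the calves, with an adjusted p of 0.0794 over 6 tests and 0.0397 over the 3 on values the rule did not use. Without IUCL-B calves 4 and 5, which had the 2 lowest shares and the most listed positions, it was 7.95 points (exact permutation p = 0.171). Among the other deep positions the share was 13.1 ± 5.74% in IUCL-B and 17.8 ± 0.731% in IUHT-B, with the same 2 calves lowest at 7.94% and 6.04%. Over all positions with more than 10 reads in the calf, these 2 were at 18.7% and 21.0%, the lowest and the highest of the 9. The part of the listed positions in the difference at members was not tested.

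The treatment difference in the mean level of the members, IUHT minus IUCL, was -7.49 points in liver and -0.237 points in the mammary gland. No p is given for their difference, since the limit on mammary levels leaves little room for a difference there.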

How the data were processed

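RRBS was read from 6 mammary gland and 9 liver libraries, 1 per animal. The authors digested DNA with MspI and TaqαI, kept fragments under 300 bp and read 50 bp single ends. Reads were trimmed with Trim Galore and mapped with Bismark in its post-bisulfite mode to UMD3.1.1 per the study's methods. The submitters' processing notes list Trim Galore 0.4.4, Bismark 0.17.0 and build UMD3.1. The authors deposited, per cytosine position, the count of methylated and of unmethylated reads and the percent methylated. The deposited percent was within 0.01 points of the value from the counts at all 67744292 listed positions.

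Only the counts entered the calculations (Python 3.11.15, numpy 2.4.6, scipy 1.17.1). Coordinates are those of the files. No genome or annotation of this build was used here, so no sequence is printed and no gene named. Replicates were animals. Heifers were numbered in the order of their records and calves by their labels. Values per animal were tested by exact permutation (two-sided), adjusted by Benjamini-Hochberg over 6 tests, of which 3 are printed. The other 3 were run on mammary levels or reads that the rule had used. They are given as values only and stay counted in the adjustment. Single positions were tested by logistic regression with a likelihood-ratio test, as the study's methods state the model, after a check on simulated data. There, 200 of 18486 simulated positions were changed by 30 points. Logistic regression recovered 182 of them, Fisher's exact test 180 and the test with overdispersion 2. The simulated reads had no extra variation between heifers, which is what the regression and Fisher's test assume. A change of 30 points is also larger than any difference found at a member. Wilson 95% intervals and limits of 3 reads cover counting error only, since copies of one molecule made by PCR could not be told from separate molecules.

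Named clusters and positions followed fixed rules, on chromosomes except for the unplaced sequences. They were the 8 largest clusters, the unplaced sequences with most members, the 5 deepest members and the 3 largest treatment differences each way. Also named were the 5 highest mean liver levels (3 or more calves with over 10 reads) and the 3 values on each side of 15%. Members with over 10 reads in all 9 calves were chosen after their values were seen, as was the read ratio of 4 times. The members and lists were chosen with earlier results of these data known. The replicate numbers of the calves did not pair them: the deviations of same-numbered calves correlated by 0.0522, 0.0669, 0.107 and -0.0564 over 900 positions. Alternatives were other read minimums, limits, gaps and windows, chromosomes only, a coverage cap, other tests and leaving out animals.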

Additional observations from a re-analysis of the deposited data

How the results depend on the processing

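The liver difference between members and other deep positions kept its direction and stayed past 0.05 in all 19 alternatives. The number of members was 406 with more than 20 reads and 188 with a coverage cap that drops the deepest 0.1% of each library's positions, and 535 to 957 with the other limits. With more than 20 reads the unplaced share was 5.67%. The median of listed positions at members minus that at other deep positions was -4 within 100 bp and -9 within 500 bp. The level of neighbouring positions lay between -6.07 and -5.27 points when 1 heifer was left out, with an exact permutation p of 0.0625, the smallest 5 heifers allow. The liver treatment difference at members was 9.06 points with more than 20 reads and 7.95 without IUCL-B calves 4 and 5, and it lay between 9.66 and 14.1 when 1 calf was left out. It missed 0.05 in 11 of 16 alternatives, and without IUCL-B calf 3 it was 14.1 with p = 0.0286 (exact permutation). With calves 2 to 5 paired by number as a replicate block it was 11.9 (exact permutation p = 0.25, where 4 pairs allow no less than 0.125), but the numbers mark no shared source. The members called by treatment were 0 with the overdispersion test and 0 with the coverage cap. They were 15 with Fisher's exact test, 31 with more than 20 reads and 16 to 25 when 1 heifer was left out. The share of all deep positions at q alone is given for the main setting only, and the number of members differs between settings. Nothing is read from these counts. The overdispersion test recovered few changes in simulated data, so its 0 says little. The alternatives on the liver results without the members of uneven read ratio were chosen after seeing the data.

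Depth limits what was seen: a position read 11 times without a methylated read can hide a level above 15%, and 407 members could not be judged in liver.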

Other observations

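In bins of 100 kb along the chromosomes, 423 bins held a member and 324 of these held only 1. Bins with 10 or more deep positions held 32.9% of the members on chromosomes and 84.4% of the other deep positions. Among the bins with most members were these 6. On chromosome 2 from 2000000 to 2099999 all 6 deep positions were members, and on chromosome X from 114400000 to 114499999 7 of 9 were. On chromosome 1 from 145300000 to 145399999 it was 10 of 403 deep positions, on chromosome 27 from 28800000 to 28899999 7 of 284, from 28700000 to 28799999 6 of 272, and on chromosome 29 from 30300000 to 30399999 6 of 370.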
